A study of Mus musculus with 3 samples.

Results

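The 10 genes described here encode the cyclin-dependent kinase inhibitors and the core of the p53 circuit: Cdkn1a, Cdkn1b and Cdkn1c of the Cip/Kip family, Cdkn2a, Cdkn2b, Cdkn2c and Cdkn2d of the INK4 family, and Trp53, Mdm2 and Ccng1. They were chosen by name. All non-control probes that the array design assigns to them were taken, if a spot was free of outlier flags on all 3 arrays. This gave 17 of the 55116 probes kept, and 10 of the 24453 genes with a RefSeq symbol. All 10 genes had a probe well above background, the scanner software's call of detection, on all 3 arrays, and 15 of the 17 probes did.

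RNA came from mpkDCT cells, a mouse line of the kidney's distal convoluted tubule. All 3 groups, the control included, carried a CRISPR-Cas9 knockout of Cyp27b1. Cyp27b1 is the 1α-hydroxylase that makes 1,25-dihydroxyvitamin D3 (calcitriol) from 25-hydroxyvitamin D3 (calcidiol). The groups were vehicle, calcitriol at 1e-07 M and calcidiol at 1e-07 M, each given for 24 h. For the 24 h before, the cells had been kept in 2% charcoal-stripped serum and medium free of phenol red. Each group was measured on 1 array with a single Cy3 label, so no difference below has a replicate check or a p-value. The sources used here explain neither a tag in the sample titles, siCT, nor whether the knockout line was 1 clone. One label text writes the calcidiol compound with an additional hydroxyl group, and the treatment tag, followed here, names 25(OH)D3.

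The arrays lay on 1 slide, and the position on the slide cannot be told apart from the group. Of the 59305 non-control spots of each array, 49.7% to 50.98% were well above background. The only Cyp27b1 probe kept was undetected by that call on all 3 arrays. The sources used here do not place it relative to the edit, so it checks nothing. Against the labelled tissue, all 6 epithelial markers examined, among them Cdh1, Epcam, Krt8 and Krt18, failed that detection call on every array. So did 5 of 8 distal tubule markers, among them Slc12a3, Calb1 and Trpm6. All 3 leukocyte markers (Ptprc, Cd68 and Cd3e) and 3 of 5 fibroblast markers (Postn, Col1a1 and Dcn) were well above background on all 3 arrays. Cd3e was dim, at 33.9, 47.9 and 54.6 with vehicle, calcitriol and calcidiol. Kidney tubule markers passed as well: 2 of 4 for the proximal tubule (Lrp2 and Aqp1) and 2 of 8 for the distal tubule (Wnk4 and Kcnj10). For principal cells 1 of 3 passed (Aqp2), and for endothelium 1 of 3 (Kdr).

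Cyclin-dependent kinases drive the cell cycle when they are bound to cyclins. Cip/Kip proteins bind complexes of kinase and cyclin, mainly those that act at the entry into and during S phase, whereas INK4 proteins bind the kinases CDK4 and CDK6 and keep D-type cyclins from activating them. Trp53 encodes p53, a stress-activated transcription factor that induces Cdkn1a, and Mdm2, itself a p53 target, encodes the ubiquitin ligase that has p53 degraded. In many cell types Cdkn1a and Cdkn1b are known as inhibitors that calcitriol can raise.

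Levels are given as processed signal, the background-subtracted spot intensity in the scanner files, which is compared between arrays within a probe and not between probes. A summed signal of a marker list serves only to follow that list across the arrays. Both differences from vehicle share the 1 vehicle array. Differences are log2 differences after each array was scaled to its 75th percentile, which was higher than that of vehicle by 0.03 on the log2 scale for calcitriol and by 0.11 for calcidiol. The value after ± is the technical error from the scanner software's own spot errors, and it leaves out variation between cultures. It was 0.20 for the brightest probe of every member, whatever the signal, so it is no spread measured gene by gene. For comparison, 300 probes were printed 10 times each, and over the 285 of them detected at every spot the difference between calcitriol and vehicle had a median SD of 0.13 between spots. The 95th percentile of that SD was 0.36, and 0.45 between calcitriol and calcidiol, both larger than 0.20. A difference near the technical error is therefore not set apart from spread between spots. A gene with several probes was read from its brightest one.

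Cdkn1a was the member that stood farthest from vehicle with either compound, and its signal was lower. This gene encodes p21, the broad Cip/Kip inhibitor and a standard p53 target. Its processed signal was 1579 with vehicle, 588 with calcitriol and 1182 with calcidiol. Vehicle was thus the highest array, calcitriol the lowest and calcidiol lay between them. The log2 difference from vehicle was -1.46 ± 0.20 with calcitriol, a 2.75-fold lower level, and -0.53 ± 0.20 with calcidiol, a 1.44-fold lower level. The bright probe lies on chromosome 17, 29237377 to 29237436 (mm9, plus strand), and is 15 rows or columns from the array edge, counting the outermost as 1. Of 12955 genes measured on both the calcitriol and the vehicle array, 55 were as low as Cdkn1a or lower. Between calcidiol and vehicle, 253 of 12990 genes were as low or lower.

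The other Cdkn1a probes were dim. One, which the design assigns to the transcript NM_001111099 (chromosome 17, 29227986 to 29228045, mm9), gave 14.5 with vehicle, just over the lowest signal well above background on that array (13.36), and was not well above background with calcitriol (3.38) or calcidiol (9.55). Its bound allowed calcitriol to be only at least 1.08-fold lower. The third probe (29235299 to 29235358) was at background on all 3 arrays, at 5.08, 4.14 and 5.12 with vehicle, calcitriol and calcidiol. The Cdkn1a difference therefore rests on 1 probe.

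The summed marker signals of 3 other cell types had the same order of arrays as Cdkn1a. The summed signal of the 5 fibroblast markers was 2059 with vehicle, 414 with calcitriol and 957 with calcidiol. Postn was at -2.63 with calcitriol and -1.33 with calcidiol, Dcn at -2.37 and -0.98 and Col1a1 at -1.28 and -0.78, while Col1a2 and Pdgfra were at background throughout. The 3 endothelial markers summed to 131, 75.7 and 118, with Kdr at -0.86 and -0.32 and the defining markers Pecam1 and Cdh5 not well above background. The 3 principal cell markers summed to 109, 81.5 and 88.1, with Aqp2 at -0.48 and -0.46 and the other markers, Scnn1g and Avpr2, not well above background. Between calcitriol and calcidiol Aqp2 was at -0.02, so the compounds were hardly apart for it. The part of these markers in the Cdkn1a difference was not tested. In a bulk culture fewer cells of a type and less RNA per cell cannot be told apart.

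**Figure D1:**
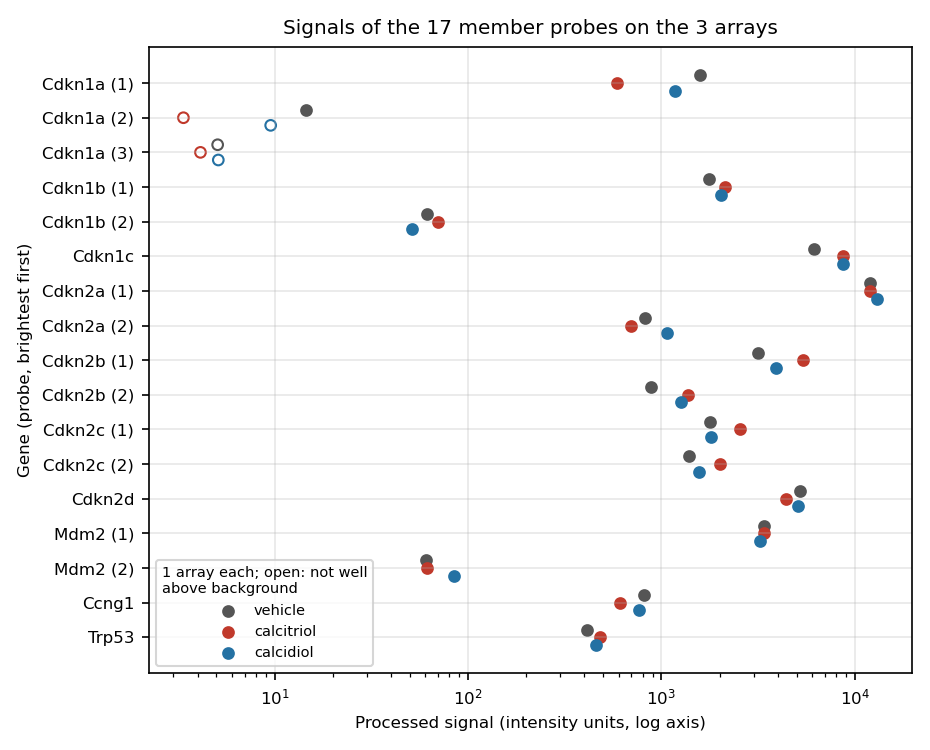
Processed signal (horizontal log axis, intensity units) of the 17 member probes on the vehicle, calcitriol and calcidiol arrays, 1 point per array, with open points where the probe was not well above background. The brightest Cdkn1a probe reads 1579, 588 and 1182 on the 3 arrays, whereas most other points of a probe lie close together.

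RefSeq lists 2 starts for Cdkn1a, and the 250 bases before each are shown because the probe of NM_001111099 and the bright probe were designed to different transcripts of the gene. Bases are from GRCm38.p6, written 5′ to 3′ on the gene's plus strand. Capitals mark p53 half-sites, the 10-base unit that p53 binds in pairs, and the GC box GGGCGG, searched on both strands with no mismatch allowed.
Cdkn1a, first start (chr17:29090729-29090978): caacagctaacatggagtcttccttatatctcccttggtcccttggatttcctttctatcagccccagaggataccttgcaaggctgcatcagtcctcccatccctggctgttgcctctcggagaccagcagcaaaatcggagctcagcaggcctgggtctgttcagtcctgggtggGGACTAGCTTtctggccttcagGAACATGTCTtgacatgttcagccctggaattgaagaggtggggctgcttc
Cdkn1a, second start (chr17:29093519-29093768): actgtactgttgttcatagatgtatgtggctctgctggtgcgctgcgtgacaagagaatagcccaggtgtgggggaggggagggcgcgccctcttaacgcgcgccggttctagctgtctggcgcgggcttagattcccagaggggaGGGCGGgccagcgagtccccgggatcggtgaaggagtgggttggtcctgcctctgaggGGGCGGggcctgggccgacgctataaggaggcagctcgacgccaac
Ccng1 (chr11:40755287-40755536, minus strand): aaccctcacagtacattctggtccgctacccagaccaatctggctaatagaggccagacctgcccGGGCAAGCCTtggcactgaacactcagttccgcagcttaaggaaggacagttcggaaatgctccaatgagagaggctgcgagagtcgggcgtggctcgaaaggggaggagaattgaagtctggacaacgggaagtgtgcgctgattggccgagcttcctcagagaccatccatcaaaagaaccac
The window of the first Cdkn1a start held 2 half-sites, beginning at positions -73 and -51 from the start, and no GC box. Units with any mismatch stay in lower case, so the capitals do not show which units form a pair. The window of the second held no half-site and 2 GC boxes, at -104 and -46. Ccng1, shown as a further p53 target among the members, held 1 half-site, at -185. Half-sites without mismatch lay in 5 of the 12 upstream windows of the 9 members that the RefSeq table holds, those of Cdkn1a, Cdkn2d, Mdm2, Ccng1 and Trp53, and in 7.12% of 32817 windows of all genes. GGGCGG lay in 6 of the 12, against 32.72% of all windows. A DR3 element, the paired 6-base repeat that the vitamin D receptor binds with its partner, lay in none of the 12 and in 0.04% of all windows. At so low a share, its absence from 12 windows says nothing about sites for the receptor. A match is a description of letters and was not tied to any binding here.

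Among the other Cip/Kip genes, signals were slightly higher with calcitriol than with vehicle, by less than 1.5-fold. Cdkn1b encodes p27, which holds resting cells out of the cycle. Its bright probe (chromosome 6, 134875424 to 134875483, mm9) read 1752 with vehicle, 2125 with calcitriol and 2023 with calcidiol, differences of 0.25 ± 0.20 and 0.10 ± 0.20 from vehicle. A dimmer Cdkn1b probe (61.7, 69.9 and 51.5) gave 0.15 ± 0.23 with calcitriol and -0.37 ± 0.24 with calcidiol. The probes thus lay on different sides of 0 for calcidiol.

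Cdkn1c encodes p57, an imprinted inhibitor expressed mainly during development. Its only kept probe (chromosome 7, 150644297 to 150644356, mm9) read 6167 with vehicle, 8728 with calcitriol and 8688 with calcidiol. Both hormone arrays were above vehicle and next to each other, at 0.47 ± 0.20 with calcitriol and 0.38 ± 0.20 with calcidiol, 1.38-fold and 1.3-fold. Of the genes measured, 700 of 12955 were as high or higher with calcitriol and 626 of 12990 with calcidiol.

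In the INK4 family Cdkn2b was highest with calcitriol by both of its probes, whereas its chromosomal neighbour Cdkn2a was close to vehicle by its bright probe. Cdkn2b encodes p15, an inhibitor known to be induced by TGF-beta. The bright probe (chromosome 4, 88952437 to 88952496, mm9) read 3140 with vehicle, 5412 with calcitriol and 3933 with calcidiol. The log2 difference was 0.75 ± 0.20 with calcitriol, 1.68-fold, and 0.21 ± 0.20 with calcidiol. The other Cdkn2b probe, at 883, 1372 and 1261, gave 0.60 ± 0.20 and 0.40 ± 0.20. Both probes put calcitriol highest, calcidiol next and vehicle lowest, but they differ on how far calcidiol lay from vehicle. The summed signal of 4 proximal tubule markers had that order too, at 3118 with vehicle, 5852 with calcitriol and 4664 with calcidiol. Lrp2 was at 1.37 with calcitriol and 0.88 with calcidiol, Aqp1 at -0.69 and -0.61, and Slc34a1 and Slc5a2 were not well above background. Values of the 3 other Lrp2 probes included 0.86 and 0.65 with calcitriol, and -0.06 and 0.07 with calcidiol. The order of the sum thus rests on the brightest Lrp2 probe, and Aqp1 went the other way. The part of these markers in the Cdkn2b difference was not tested.

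Cdkn2a encodes p16 and, through an alternative first exon, p19ARF, which blocks Mdm2. Both of its probes (chromosome 4, 88920405 to 88920464 and 88920545 to 88920604, mm9) carry the accession of 1 transcript in the design, and no probe is labelled as telling the products apart. The bright probe read 11987, 12002 and 13065 with vehicle, calcitriol and calcidiol, differences of -0.03 ± 0.20 and 0.01 ± 0.20 from vehicle. The other probe, at 819, 699 and 1075, gave -0.26 ± 0.20 with calcitriol and 0.28 ± 0.20 with calcidiol. On neither probe did an array stand as far as 1.5-fold from another. Mtap, the next gene on the chromosome, examined after the member values were seen, was at 0.17 with calcitriol and 0.01 with calcidiol.

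Cdkn2c encodes p18, an inhibitor of CDK4 and CDK6. Its probes overlap (chromosome 4, 109333779 to 109333838 and 109333757 to 109333818, mm9) and so are not independent readings. The brighter one read 1783 with vehicle, 2550 with calcitriol and 1804 with calcidiol, and the other read 1394, 2003 and 1558. With calcitriol they gave 0.48 ± 0.20 and 0.49 ± 0.20, and with calcidiol -0.09 ± 0.20 and 0.05 ± 0.20. Calcitriol was thus the high array and the other two were alike within the technical error. Both spots lie 4 rows or columns from an array edge, and what the place on the array adds to these values was not tested.

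Cdkn2d encodes p19INK4d, the INK4 protein whose level varies with the cell cycle. Its probe (chromosome 9, 21092934 to 21092993, mm9) read 5191 with vehicle, 4391 with calcitriol and 5102 with calcidiol, differences of -0.27 ± 0.20 and -0.14 ± 0.20 from vehicle.

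The p53 circuit showed no difference of 1.5-fold. Trp53, measured by 1 probe (chromosome 11, 69403134 to 69403193, mm9), read 411 with vehicle, 479 with calcitriol and 461 with calcidiol. Its differences from vehicle were 0.19 ± 0.20 and 0.06 ± 0.20, no larger than the technical error. The bright Mdm2 probe (chromosome 10, 117126010 to 117126069, mm9) read 3404, 3410 and 3242 on the vehicle, calcitriol and calcidiol arrays, differences of -0.03 ± 0.20 and -0.18 ± 0.20. A second Mdm2 probe, whose 2 ends lie 2879 bases apart on the genome, was dim at 60.6, 61.6 and 84.2 and gave -0.01 ± 0.23 and 0.36 ± 0.22. For calcidiol the Mdm2 probes therefore disagree in sign.

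Ccng1 encodes cyclin G1, a p53 target that takes part in the control of Mdm2. Its probe (chromosome 11, 40562427 to 40562486, mm9) read 812 with vehicle, 610 with calcitriol and 767 with calcidiol. Differences were -0.45 ± 0.20 with calcitriol and -0.19 ± 0.20 with calcidiol, the same order of arrays as for Cdkn1a and Cdkn2d. With calcitriol, 1240 of 12955 genes were as low as Ccng1 or lower.

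**Figure D2:**
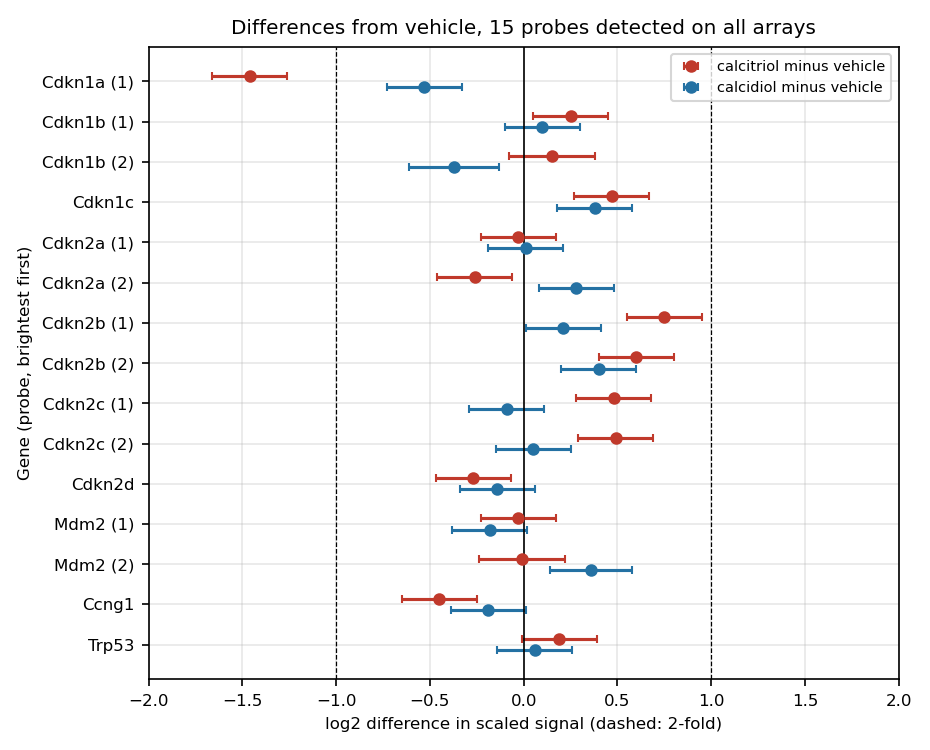
Log2 difference from vehicle (horizontal axis) of the 15 member probes well above background on all 3 arrays, with calcitriol and calcidiol side by side; bars are the technical error of the scanner software and dashed lines mark 2-fold. Cdkn1a at -1.46 with calcitriol is the only point past 2-fold, and the Cdkn2b probes at 0.75 and 0.60 are the highest.

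Counted at a size of 2-fold by the brightest probe, 1 of 10 members was lower with calcitriol than with vehicle, Cdkn1a, where 1.77% of all 12955 genes were 2-fold lower. None was 2-fold higher, against 1.07% of all genes. At 1.5-fold, Cdkn1a was lower (6.14% of all genes) and Cdkn2b higher (3.35%), and 8 of 10 members were within 1.5-fold. The Cdkn2b call at 1.5-fold ended after normexp background correction with quantile normalisation, where the difference was 0.57. With calcidiol none of the 10 passed 2-fold, against 0.731% of 12990 genes higher and 0.139% lower, and none passed 1.5-fold, against 2.23% higher and 1.35% lower. The median over the 10 members was 0.08 with calcitriol and -0.04 with calcidiol, beside 0.00 and -0.02 over all genes. With a single member past the threshold, these counts say nothing about the family as a whole. Of the genes 2-fold apart between calcitriol and vehicle, 37.6% were higher, and this share was 54.39% when arrays were centred on their median and 51.74% after normexp background correction with quantile normalisation.

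**Figure D3:**
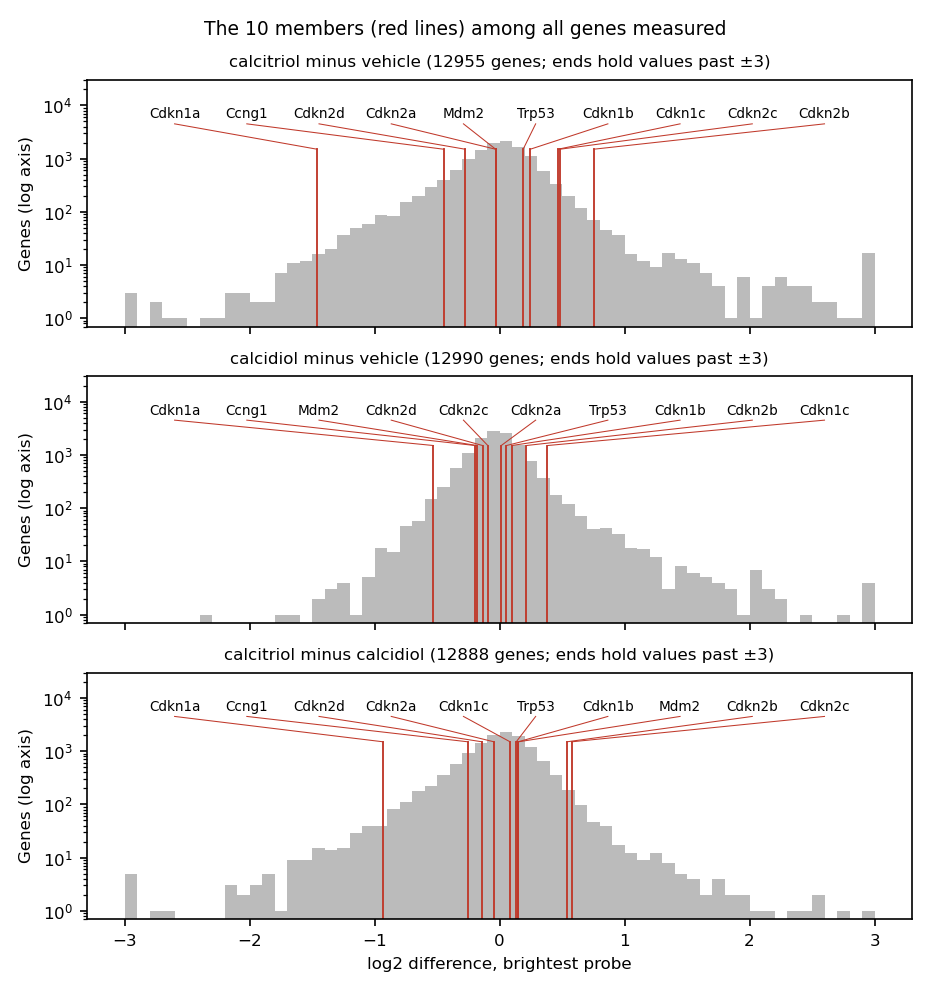
Number of genes (vertical log axis) by log2 difference of the brightest probe for the 3 comparisons, with a red line at each of the 10 members. Cdkn1a lies in the lower tail with calcitriol, at -1.46, and the other members lie between -0.45 and 0.75.

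Calcitriol carries a 1α-hydroxyl group that calcidiol lacks. The compounds were given at equal dose for equal time and form 1 pair. Cdkn1a was 1.91-fold lower with calcitriol, at -0.93 ± 0.20, and 181 of 12888 genes were as low or lower. No member was 2-fold apart, against 0.528% of all genes higher and 1.18% lower with calcitriol. At 1.5-fold Cdkn1a was the only one apart, against 4.59% of all genes lower and 2.22% higher. Cdkn2c, at 0.58 ± 0.20, and Cdkn2b, at 0.54 ± 0.20, were the highest, and the second Cdkn2b probe gave 0.20 ± 0.20. For Cdkn1c, at 0.08 ± 0.20, Cdkn2a, at -0.04 ± 0.20, Trp53, at 0.13 ± 0.20, Mdm2, at 0.15 ± 0.20, Cdkn1b, at 0.15 ± 0.20, and Cdkn2d, at -0.14 ± 0.20, the compounds were within the technical error by the brightest probe. The dimmer probes of 3 of these genes lay beyond it, at -0.54 ± 0.20 for Cdkn2a, 0.52 ± 0.24 for Cdkn1b and -0.37 ± 0.22 for Mdm2. An interval over cultures cannot be had from 1 array a group, so likeness of the compounds is not shown. Of the genes 2-fold apart, 30.91% were higher with calcitriol, and 56.72% after centring on the array median. That centring moved the median of all genes by 0.18 in this comparison and by 0.12 between calcitriol and vehicle, and it took Cdkn2a and Cdkn2d to the other side of 0 in the first and Cdkn2a and Mdm2 in the second. Between calcidiol and vehicle it did so for Cdkn2a and Trp53.

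Of 24 other p53 targets, chosen with earlier results of these data known, 23 were measured. These counts, and those of the lists that follow, use the brightest probe of a gene. Some probes that disagree with it are named, chosen after their values were seen, and others that disagree are not. With calcitriol 1 of 23 was 2-fold lower, beside 1.77% of all genes, and none higher, beside 1.07%. At 1.5-fold the shares of all genes were 6.14% lower and 3.35% higher, and those of the other comparisons are given above. Lists this short would hold few or no such genes at those shares, so these counts say nothing about a list as a whole. The median was -0.05, beside 0.00 over all genes. The 2-fold lower gene was Pidd1, an adaptor of caspase activation, at -1.39, from a spot 5 columns or rows from the array edge. Other Pidd1 probes gave -0.17 and 0.02. Of the 15 other probes of the listed targets, 1 was 1.5-fold higher with calcitriol, a probe of the nuclease gene Aen at 0.77 where the brightest gave 0.00, and 1 was 1.5-fold lower, that of Btg2 at -0.61. Btg2, an antiproliferative gene named after its value was seen, was at -0.60, and Sesn1, a stress-induced inhibitor of mTORC1 signalling, was the highest at 0.65. With calcidiol the median was -0.05, and the range ran from Ercc5, a DNA repair nuclease, at -0.39 to Ei24, an autophagy gene, at 0.42. The other Ei24 probes gave 0.29 and 0.02. In the direct comparison of calcitriol with calcidiol Pidd1 was at -1.50 and Sesn1 at 0.46. The other Pidd1 probes gave 0.05 and 0.16 there, so this Pidd1 difference too rests on 1 probe.

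Regulators of p53 and its relatives had medians of 0.08 with calcitriol and 0.02 with calcidiol. None of the 13 and 14 genes measured with these compounds was 2-fold apart. Mdm4, the partner of Mdm2, was highest with either compound, at 0.78 and 0.61, and the 5 other Mdm4 probes ranged from -0.16 to 0.46 with calcitriol and from -0.22 to 0.52 with calcidiol. Other probes were 1.5-fold lower with calcitriol for the checkpoint kinase gene Atr, at -0.79, and for Trp53bp1, which encodes a p53-binding protein of DNA repair, at -0.85. The brightest probes gave -0.13 for Atr and 0.08 for Trp53bp1. Both lower probes were dim, with vehicle signals of 40 for Atr, 4 rows or columns from the edge, and 32.5 for Trp53bp1. That Trp53bp1 probe was at -0.90 with calcidiol. Ep300, a histone acetyltransferase and p53 coactivator, was lowest with calcitriol at -0.46, and Chek2, a checkpoint kinase, was lowest with calcidiol at -0.51. Between the compounds Ep300, at -0.46, and Chek2, at 0.47, were the extremes. There 3 of the 22 other probes of this list were 1.5-fold lower with calcitriol and none was higher. These were probes of Atr at -0.75, Ep300 at -0.68 and Mdm4 at -0.60, where the brightest Atr and Mdm4 probes gave -0.13 and 0.17.

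The kinases and cyclins that the inhibitors bind held 12 measured genes of 13, none of them 2-fold apart in any comparison by the brightest probe. Of their 12 other probes 1 was, a probe of cyclin B1 (Ccnb1) in the outermost row or column of the array. It read 410 with vehicle, 64.4 with calcitriol and 600 with calcidiol, a difference of -2.70 between calcitriol and vehicle and of -3.14 between calcitriol and calcidiol. The brightest Ccnb1 probe gave 0.07 and 0.02, and the third gave 0.20 and -0.37. Another Cdk6 probe was 1.5-fold lower with calcitriol, at -0.72, where the brightest gave -0.26. Medians were 0.03 with calcitriol and -0.09 with calcidiol. Cyclin E2 (Ccne2) was the highest with both, at 0.55 and 0.37, from signals of 16.7, 25 and 23.3 near the background. Cyclin D1 (Ccnd1) was lowest with calcitriol at -0.29 and Cdk6 lowest with calcidiol at -0.22. Between the compounds Cdk4 was at -0.42 and Cdk7 at 0.43. Pocket proteins and E2F factors, through which these kinases act on S-phase genes, were all 11 measured and within 1.5-fold, from Tfdp2 at -0.24 to Tfdp1 at 0.28 with calcitriol and from E2f3 at -0.42 to E2f6 at 0.31 with calcidiol. With calcitriol against calcidiol the lowest was E2f6 at -0.21 and the highest Tfdp1 at 0.44.

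Among 16 measured regulators of the inhibitor genes and proteins, Myc, a transcription factor that represses Cdkn1a and Cdkn2b with Miz-1, was highest with both compounds. Its signals were 356 with vehicle, 662 with calcitriol and 546 with calcidiol, differences of 0.86 and 0.50, and its other probe gave 0.76 and 0.17. Foxo1, a transcription factor that induces Cdkn1a and Cdkn1b, was lowest with calcitriol at -0.93 from a spot 2 rows or columns from the array edge, and another Foxo1 probe gave -0.61. Zbtb17, which encodes Miz-1, was lowest with calcidiol at -0.49 and highest between the compounds at 0.58, and Id1, a helix-loop-helix inhibitor, was lowest between them at -0.70. None of the 16 was 2-fold apart, and the medians were 0.01 with calcitriol and -0.01 with calcidiol.

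All 14 proliferation markers were measured and none was 1.5-fold apart in any comparison by the brightest probe, with medians of -0.01 with calcitriol and 0.02 with calcidiol. Mki67 was the lowest with calcitriol, at -0.20, from signals of 10162 with vehicle, 9070 with calcitriol and 10411 with calcidiol. The replication helicase gene Mcm7 was highest with both compounds, at 0.31, and another Mcm7 probe gave 0.06 and 0.02. Of the 10 other probes of these markers, 1 was 1.5-fold lower with calcitriol, that of the survivin gene Birc5, also in the outermost row or column, at -0.64, where the brightest gave -0.04. Between the compounds these Birc5 probes gave -0.57 and 0.09. With calcidiol the mitotic kinase gene Aurka was lowest at -0.18, and between the compounds Mcm3, at -0.30, and Aurka, at 0.17, were the extremes.

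**Figure D4:**
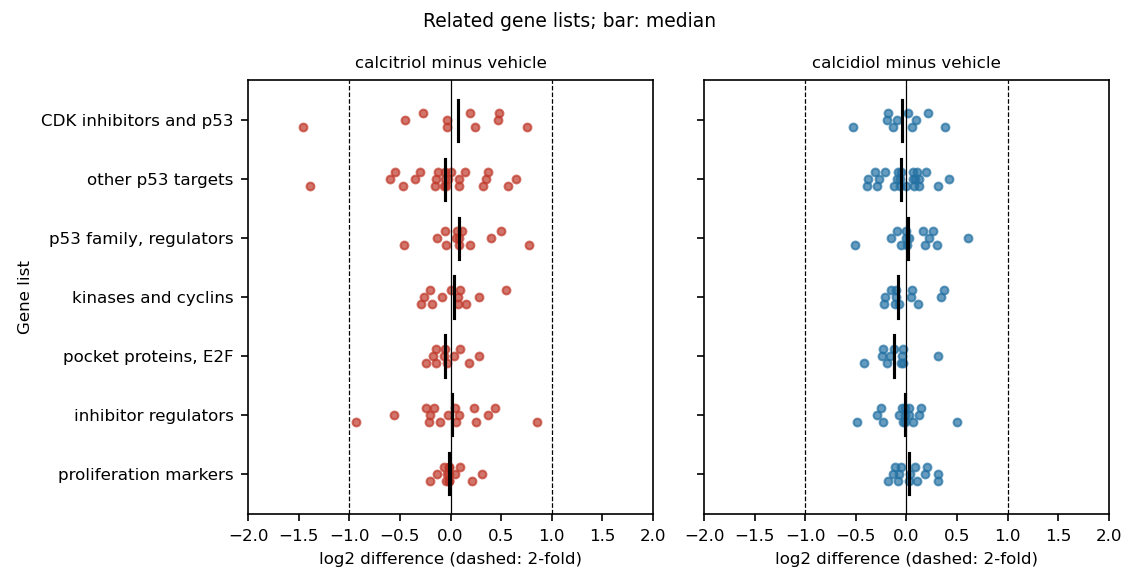
Log2 difference from vehicle (horizontal axes) with calcitriol on the left and calcidiol on the right for each measured gene of the members and of 6 related lists, 1 point per gene, with a black bar at the list median and dashed lines at 2-fold. Every list is centred near 0, and Cdkn1a at -1.46 and Pidd1 at -1.39 are the only points past 2-fold.

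The genes whose pair of differences from vehicle lay nearest to that of Cdkn1a, among 12823 genes measured on all 3 arrays, were Kcnc2, a potassium channel gene, Sync and Gm16104. They were at -1.45, -1.44 and -1.36 with calcitriol and -0.48, -0.57 and -0.52 with calcidiol, at distances of 0.047, 0.049 and 0.102 in log2 units. All 3 were dim, with vehicle signals of 73.5, 104 and 48.5, and the Gm16104 spot lies 6 rows or columns from the edge. Along chromosome 17, examined after the Cdkn1a values were seen, the neighbour Srsf3 was at 0.31 with calcitriol and 0.23 with calcidiol and the next gene Stk38 at 0.11 and -0.01. On the other side Rab44 was at background throughout, and Cpne5, the gene after it, was at -1.16 and -0.50 from signals of 94.2 with vehicle, 43.3 with calcitriol and 72.2 with calcidiol.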

How the data were processed

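The authors' deposited scanner files hold spot intensity on a linear scale for 1 array a group. Background was subtracted and each array detrended with Feature Extraction 10.7.1.1, per the file headers, which place probes on mm9. The version in the submitters' processing notes is 9.5.1.1. The deposited value table holds intensity already equalised between arrays and served only as an alternative. Control spots were left out, and leaving out outlier-flagged spots removed 1489 of the 56605 other probes. From log2 signals the array's own 75th percentile was subtracted, a signal of 371.1 (vehicle), 379.8 (calcitriol) or 400.8 (calcidiol). Of the remaining probes, 42591 were named through a RefSeq table of GRCm38.p6, and 12525 without such a name were left out of the counts over genes. A difference needs the probe well above background on both arrays. The number of arrays limits the precision, and no test was run. The steps were run on simulated arrays whose noise came from the spot errors only, without variation between cultures. Recovery was required only of changes larger than the 2-fold threshold, so the simulation does not show how reliable a 2-fold call is. Members, lists and the 2-fold threshold were chosen with earlier results of these data known. The naming rule took every member, the extremes and 2-fold members of each list, and the 3 genes nearest to a 2-fold member. Alternatives were other scalings, normexp with an offset of 50, an offset of 32, other filters, other probes, the value table, 1.5-fold and no edge spots. Python 3.11.15, pandas 2.3.3, R 4.3.3 and limma 3.58.1 were used.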

Additional observations from a re-analysis of the deposited data

How the results depend on the processing

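No paired analysis was possible because each group had 1 array. The 2-fold counts of members kept their values between calcidiol and vehicle under every alternative, and in the other comparisons under all but the lower threshold. At 1.5-fold, 1 member was higher with calcitriol than with vehicle (Cdkn2b) in place of 0, and 1 was lower with calcitriol than with calcidiol (Cdkn1a) in place of 0. Cdkn1a ranged from -1.46 to -1.34 with calcitriol, from -0.59 to -0.52 with calcidiol and from -0.94 to -0.75 between the compounds. Cdkn2b ranged from 0.57 to 0.87 with calcitriol. Of 297 member values under the alternatives, 289 moved by less than their technical error, and 8 moved further, among them Cdkn2b between the compounds, at 0.13 with normexp and quantile normalisation. Many of the 289 could not have moved. The settings on outlier flags, detection on 1 array, dim genes and edge spots left every member value they kept unchanged. Median centring shifted all genes together by at most 0.18, less than the technical error of 0.20. The count therefore overstates how stable the values are. Cdkn2c had no value without the outermost 6 rows and columns.

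Counts over all genes moved with several settings. Between calcitriol and vehicle, 138 genes were higher and 229 lower, against 89 and 83 (normexp, then quantile), 99 and 119 (offset of 32), 271 and 449 (detection needed on 1 array only) and 78 and 99 (the dimmest 25% of genes removed). Between calcidiol and vehicle, 95 and 18 became 51 and 4, 53 and 7, 276 and 130, and 47 and 2 under these settings, and 82 and 28 with median centring. Between the compounds, 68 and 152 became 31 and 73, 43 and 66, 159 and 390, and 27 and 73, and 114 and 87 with median centring. The cause was not tested. A signal near 13.36 on the vehicle array, 13.82 on calcitriol or 17.85 on calcidiol, the lowest well above background, limits what the dim probes show.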
